A study of Homo sapiens with 4 samples.

Results

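The extrinsic apoptosis pathway was followed through 8 genes: the ligand TNFSF10 (TRAIL), the death receptors FAS, TNFRSF10A (DR4) and TNFRSF10B (DR5), the adaptor FADD, the initiator caspases CASP8 and CASP9, and CFLAR (c-FLIP), the inhibitor of CASP8. They were chosen by symbol out of 53617 gene identifiers in the deposited tables, and all 8 were found, with 98 transcripts between them. Levels are in FPKM, reads per length of transcript and size of library, and were read transcript by transcript and as a sum per gene.

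The 4 libraries were made from total RNA of HT29 cells, an established human colon adenocarcinoma line, at passages 12 to 13. One was transfected with a miR-23b precursor, which raises the microRNA, and one with the precursor control. One was transfected with an antimir, which blocks the microRNA, and one with the antimir control. All 4 received 50 nM oligonucleotide with Lipofectamine 2000 at 90% confluency in McCoy medium with 5% serum, had fresh medium after 24 h and were harvested at 48 h. With 1 library per group there is no replicate error, so every difference is given without a test of its own. In bulk RNA, fewer cells that express a gene and less RNA per cell cannot be told apart.

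The death receptors are surface proteins that, once bound by their ligand, recruit FADD through death domains. FADD in turn gathers CASP8 into a signalling complex where the caspase is activated, and CFLAR, which resembles CASP8 without its protease activity, competes for the same place. CASP9 is the initiator of the mitochondrial branch, activated on the apoptosome, to which CASP8 can connect through cleavage of BID. Colon cancer lines differ in how readily TRAIL kills them. A microRNA lowers its targets mainly through pairing of its seed, bases 2 to 8, with sites in the 3′ UTR of an mRNA.

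The 3p mature strand of miR-23b is shown with its seed in capitals (RefSeq, GRCh38.p14, chromosome 9, 95085265 to 95085287, plus strand), followed by the sites found in 3′ UTRs of the pathway's transcripts, where capitals mark the bases that match.
miR-23b-3p: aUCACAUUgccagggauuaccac
FAS-204 site: agtttgtattaAATGTGAattttaagaaa
CFLAR-201 site: cagctaataagATGTGAAggatctcttca
The FAS-204 site (GENCODE 29 transcript sequence, position 1154 of a 3′ UTR of 1335 bases) holds AATGTGA, the complement of the whole seed, and an A after it. The CFLAR-201 site, at position 4937 of a 3′ UTR of 12714 bases, holds the shorter ATGTGAA, which pairs with bases 2 to 7 and has an added A. TNFRSF10B-201 and TNFRSF10B-202 each carried 1 whole-seed site, which is not printed here. The letters of either site were not found in the longest 3′ UTR of TNFRSF10A, TNFSF10, FADD, CASP8 or CASP9. Of 18560 protein-coding genes, 18.6% had a whole-seed site in their longest 3′ UTR and 26.7% had either kind. A match is a description of letters only.

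At FPKM of 1 or more the libraries held 13908 to 16809 genes. Of 10 colon epithelial markers, 8 or 9 reached 1 FPKM in each library, KRT8 and KRT18 the highest. Of 12 markers of leukocytes, fibroblasts, endothelium, erythroid cells and hepatocytes, 11 had a value (PECAM1 did not), CD14 alone reached 1 FPKM (1.74 to 2.76), and 4 to 7 per library were listed at 0. The summed level of these 11 was 3.79 FPKM with the precursor, against 2.77 with its control, and 2.76 with the antimir, against 2.63 with its control. The precursor genes MIR23A and MIR23B had a listed value of 0 in every library, so the tables hold no check of the manipulation itself. Interferon-induced genes differed between the libraries: of 15 measured, 14 were below 0 in the precursor comparison (median -0.26), and all 18 were past 1.5-fold higher in the antimir comparison (median 1.55).

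Gene sums of the 8 genes stayed under 1.5-fold on the centred log2(FPKM + 1) scale in both comparisons, with the 3 widest differences, those of TNFSF10, FAS and TNFRSF10A, in the antimir comparison. The difference used was that of log2(FPKM + 1), treated library minus control, less the median over all genes whose mean was 1 FPKM or more, a scale that understates the change of low genes. All 8 genes passed that minimum in both comparisons. None was past 1.5-fold in the precursor comparison, where 6.68% of all 16982 genes and 1.13% of 11346 protein-coding genes were. None was past it in the antimir comparison either, where 7.97% of 14190 genes and 2.62% of 11060 protein-coding genes were. The median of the 8 was 0.01 with the precursor (4 above 0 and 4 below) and 0.03 with the antimir (5 above and 3 below), beside 0 for all genes. A count of 0 among 8 genes is near what such backgrounds give.

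Summed FPKM gave the 8 genes the same order in all 4 libraries, high to low: CASP8, CFLAR, TNFRSF10B, TNFSF10, FADD, TNFRSF10A, CASP9 and FAS. CASP8 lay between 51.8 and 97.9 FPKM and FAS between 2.55 and 5.14. FADD and TNFRSF10A were neighbours at 13.0 and 12.2 FPKM with the precursor, against 11.8 and 11.4 with its control, a gap no wider than the 2 genes' own differences between those libraries. In the antimir library FADD and TNFRSF10A were at 11.4 and 6.33 FPKM, and in its control at 11.9 and 9.80. The precursor and antimir tables had been normalised separately, so levels are compared across genes within a library and across libraries within a table. The order depended on summing FPKM. With FPKM multiplied by transcript length in kilobases, a weighting chosen after seeing the data, CFLAR (96.6) exceeded CASP8 (56.5) in the antimir library. So weighted, CASP8 stayed highest with the precursor (63.8), but TNFRSF10B (52.3) exceeded CFLAR (47.9). In transcripts with a complete coding part, the precursor order began with FADD (13.0 FPKM), TNFSF10 (12.4), CFLAR (7.55) and CASP8 (7.36).

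**Figure D1:**
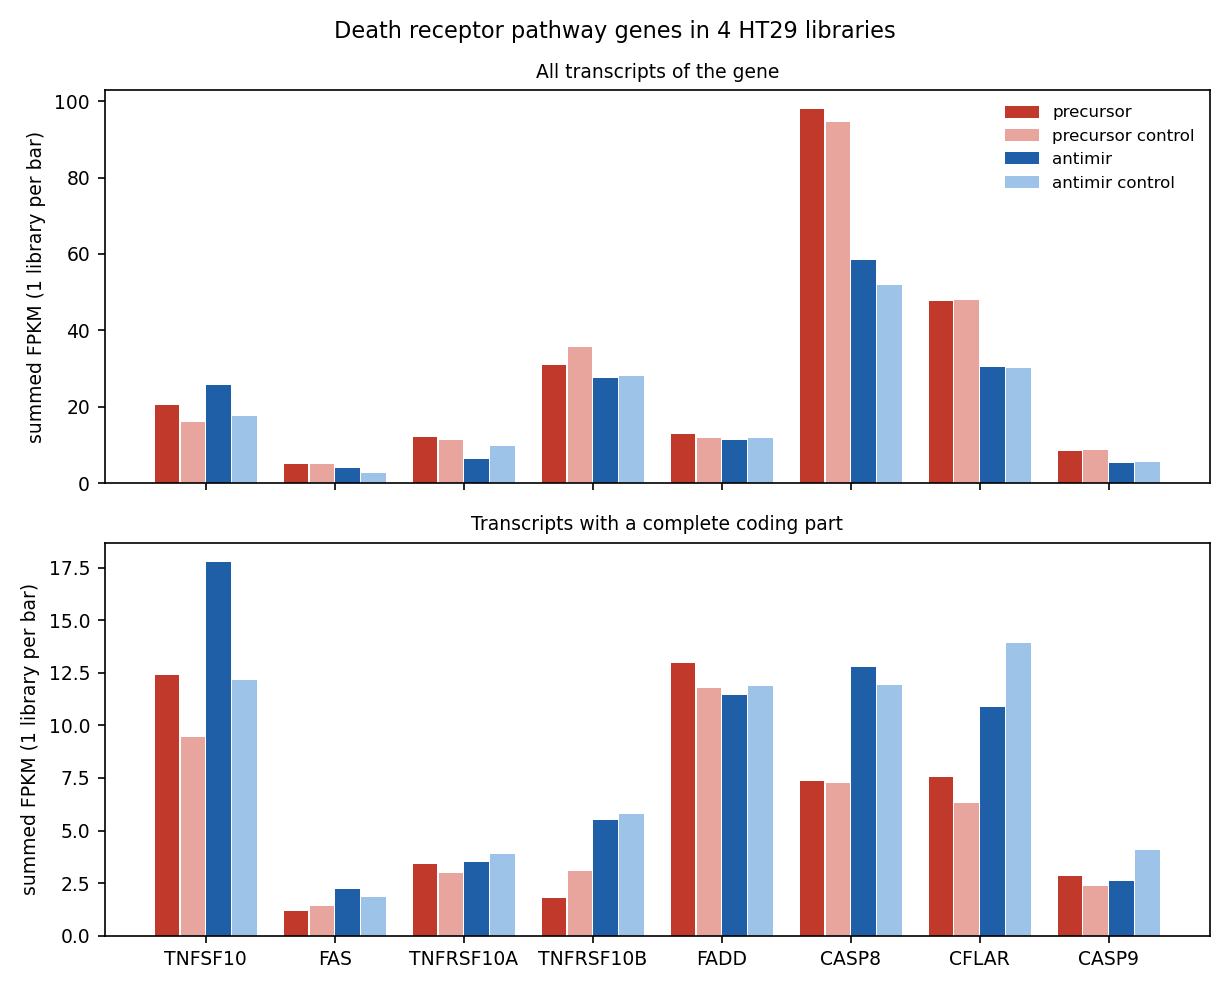
Summed FPKM per library (vertical axis, linear, from 0) of the 8 genes, for all transcripts above and for transcripts with a complete coding part below; each bar is 1 library and carries no error. CASP8 leads above, at 97.9 FPKM in the precursor library, whereas in coding transcripts it is at 7.36 FPKM there.

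TNFSF10 encodes TRAIL, the ligand of TNFRSF10A and TNFRSF10B, and was the gene with the highest positive difference among the 8 in both comparisons on this scale; at a pseudocount of 0.1 FPKM, FAS was higher with the antimir (0.68, against 0.60 for TNFSF10). It was at 20.4 FPKM with the precursor, against 16.1 with its control (0.31), and at 25.8 with the antimir, against 17.5 with its control (0.58). Thus both treated libraries lay above their controls, although one oligonucleotide raises the microRNA and the other blocks it. The antimir value, 0.575, sat just under the 1.5-fold line at 0.585. Of protein-coding genes, 9.07% lay at least as far from 0 in the precursor comparison and 2.74% in the antimir comparison. The interferon-induced list, to which TRAIL is related as an interferon-inducible gene, summed to 1937 FPKM with the precursor, against 2268 with its control, and to 5319 with the antimir, against 1710 with its control. Their part in the TNFSF10 values was not tested. The TNFSF10 locus in hg19 is chromosome 3, 172223298 to 172241297, as the tables give it. A pseudogene over it on the opposite strand, AC007919.1, was listed at 9.80 FPKM with the precursor, against 8.51 with its control. It was listed at 0 in both libraries of the antimir table. Its reads and those of TNFSF10 cannot be told apart without strand.

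The TNFSF10 difference was split differently between its coding transcripts in the 2 comparisons. TNFSF10-201 encodes the whole ligand of 281 residues, and TNFSF10-202, which joins exon 2 to what is exon 5 of TNFSF10-201, encodes 101 residues. The junction that tells them apart is given with the exon after it in capitals (GENCODE 29, chromosome 3).
TNFSF10-201 exons 2/3: cagctcgttagaaagATGATTTTGAGAACC
TNFSF10-202 exons 2/3: cagctcgttagaaagACTCCAAGAATGAAA
TNFSF10-202 was at 8.71 FPKM with the precursor, against 5.17 with its control, called higher in the authors' deposited table (q-value 4.23e-05). In the antimir table it was at 8.48 FPKM, against 5.33 in the antimir control, which the authors' deposited table did not call (p-value 0.0291, q-value 1.00). The short transcript was thus higher in both treated libraries, by similar amounts. TNFSF10-201 was at 3.68 FPKM with the precursor, against 4.29 with its control, but at 9.31 with the antimir, against 6.84 with its control. Of the FPKM of this pair, the short transcript took 70.3% with the precursor, against 54.7% with its control, and 47.7% with the antimir, against 43.8% with its control. TNFSF10-206, a retained-intron transcript, was higher in both treated libraries as well, at 6.80 FPKM with the precursor, against 5.96 with its control, and at 6.32 with the antimir, against 4.38 with its control. Transcripts with a complete coding part together gave 0.33 with the precursor and 0.55 with the antimir, near the values of the whole gene.

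The promoter window of TNFSF10 is shown because the gene was higher in both treated libraries, with interferon-induced genes high in the antimir library and low in the precursor library; that of CASP8, which is also interferon-inducible, held the same motif. Both windows run from 250 bases before to 50 after the gene start (RefSeq, GRCh38.p14), with matches in capitals. The motifs searched on both strands were the core of the interferon-stimulated response element, which is GAAA, any 2 bases and GAAA again, and the gamma-activated site TTCNNNGAA.
TNFSF10 chr3:172523381-172523680, minus strand: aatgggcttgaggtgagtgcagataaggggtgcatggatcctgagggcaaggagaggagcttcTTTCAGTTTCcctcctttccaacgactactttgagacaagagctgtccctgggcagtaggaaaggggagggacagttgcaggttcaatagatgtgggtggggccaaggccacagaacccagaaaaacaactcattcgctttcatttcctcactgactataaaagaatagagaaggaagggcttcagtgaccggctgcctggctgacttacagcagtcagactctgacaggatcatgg
CASP8 chr2:201233213-201233512, plus strand: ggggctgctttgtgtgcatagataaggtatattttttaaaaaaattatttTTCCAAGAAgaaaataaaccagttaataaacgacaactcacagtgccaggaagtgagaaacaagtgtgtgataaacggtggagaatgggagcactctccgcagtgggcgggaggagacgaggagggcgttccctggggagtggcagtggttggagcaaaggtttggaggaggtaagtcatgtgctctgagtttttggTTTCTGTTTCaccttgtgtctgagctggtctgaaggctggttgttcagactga
The TNFSF10 window held TTTCAGTTTC, the response element core on the other strand, beginning 187 bases before the start. The CASP8 window held TTTCTGTTTC beginning 3 bases before the start, and TTCCAAGAA 200 bases before it. Of 35116 promoter windows, 3.57% held the response element core and 7.66% the gamma-activated site, and matches of the 2 motifs in CASP8 did not overlap. Windows were matched for 6 of the 8 genes, 14 windows in all; those of FAS, FADD, CFLAR and CASP9 and the other 2 windows of CASP8 held neither string of letters.

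FAS, the receptor of FAS ligand, was higher with the antimir, with the largest rise in a transcript whose class is not known. It was at 5.14 FPKM with the precursor, against 5.07 with its control (-0.0047), and at 4.04 with the antimir, against 2.55 with its control (0.54). In the antimir library, 23.4% of FAS came from ENST00000371875, a transcript not found in GENCODE 29, at 0.943 FPKM and listed at 0 in the antimir control, and given a low-data status and no test in the authors' deposited table. The same transcript was at 1.07 FPKM with the precursor, against 0.464 with its control, or 20.7% of FAS against 9.15%. Transcripts with a complete coding part were at 2.24 FPKM with the antimir, against 1.86 with its control (0.22), and at 1.16 with the precursor, against 1.39 with its control (-0.17). The locus is chromosome 10, 90639491 to 90775542 in hg19, a span shared with ACTA2 on the opposite strand.

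FAS-204 encodes the whole receptor of 335 residues and carries the seed site printed above. In both comparisons it was above its control, at levels under 1 FPKM, and was not called in the authors' deposited table. It was at 0.777 FPKM with the precursor, against 0.670 with its control, and at 0.754 with the antimir, against 0.596 with its control. FAS-202, of 233 residues, has a 3′ UTR of 830 bases in which the site was not found. It was at 0.382 FPKM with the precursor, against 0.720 with its control, and at 1.49 with the antimir, against 1.27 with its control. The transcript with the site therefore took 67.0% of the pair with the precursor, against 48.2% with its control, and 33.7% with the antimir, against 32.0% with its control. FAS-205, which encodes 314 residues, the length of the soluble form without the membrane segment, was listed at 0 in all 4 libraries. The authors' deposited table called 2 FAS transcripts, both named here after their values were seen and both annotated for nonsense-mediated decay: FAS-210 at 0.409 FPKM with the precursor, against a listed 0 with its control (q-value 0.0288), and FAS-215 at a listed 0 with the precursor, against 0.370 FPKM with its control (q-value 0.0494).

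TNFRSF10A and TNFRSF10B, the TRAIL receptors that carry death domains, differed from their controls in different comparisons and in different transcript classes. TNFRSF10A was at 12.2 FPKM with the precursor, against 11.4 with its control (0.07), and at 6.33 with the antimir, against 9.80 with its control (-0.52). Of protein-coding genes, 3.60% lay at least as far from 0 in the antimir comparison. The difference lay in TNFRSF10A-202, a retained-intron transcript of 342 bases, at 2.17 FPKM with the antimir, against 5.93 with its control, and at 5.58 with the precursor, against 5.04 with its control. TNFRSF10A-201, which encodes the receptor of 468 residues, was at 3.52 FPKM with the antimir, against 3.86 with its control (-0.07), and at 3.41 with the precursor, against 2.98 with its control. TNFRSF10A-203, a coding fragment of 693 bases, was at 3.19 FPKM with the precursor, against 3.34 with its control, and at 0.644 with the antimir, against a listed 0 with its control. The antisense gene TNFRSF10A-AS1 was at 0.959 FPKM with the antimir, against 1.80 with its control. Whether counting used strand is not given in the sources used here, so reads of both strands cannot be told apart at this locus (chromosome 8, 23046792 to 23088439, hg19).

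TNFRSF10B was lower in the precursor library, in its coding transcript and in several noncoding ones. The gene was at 31.1 FPKM with the precursor, against 35.6 with its control (-0.21), and at 27.5 with the antimir, against 28.1 with its control (0.0082). TNFRSF10B-202, which encodes 411 residues and has 1 whole-seed site, was at 1.80 FPKM with the precursor, against 3.10 with its control, called lower in the authors' deposited table (q-value 0.00573). In the antimir table it was at 5.37 FPKM, against 5.78 in the antimir control, and was not called in the authors' deposited table (p-value 0.808). Summed over protein-coding transcripts alone, a sum chosen after seeing the data, TNFRSF10B was at -0.59 with the precursor. That is past 1.5-fold lower, as were 0.902% of 10423 genes summed and centred that way. In the precursor table this sum is TNFRSF10B-202 alone, and the same FPKM gave -0.57, under 1.5-fold, on the centring used elsewhere. TNFRSF10B-201, with 440 residues, was listed at 0 in all libraries other than the antimir library, where it was at 0.139 FPKM.

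Most TNFRSF10B FPKM was assigned to transcripts not annotated as coding. How reads that fit several transcripts were divided among them was not tested. Retained-intron transcripts took 63.1% of its FPKM with the precursor, against 61.8% with its control, and 76.1% with the antimir, against 77.4% with its control. TNFRSF10B-208, the longest of them, was at 10.7 FPKM with the precursor, against 10.9 with its control, and at 10.5 FPKM in both antimir-table libraries. This transcript hardly differed from its controls, whereas TNFRSF10B-202 was lower with the precursor. Lower there as well were the retained-intron transcripts TNFRSF10B-203 (5.51 against 6.67 FPKM) and TNFRSF10B-206 (3.37 against 4.31 FPKM). TNFRSF10B-207, annotated for nonsense-mediated decay and named after its values were seen, was higher there (3.02 against 2.25 FPKM). TNFRSF10B-205, a processed transcript of 546 bases, was at 6.63 FPKM with the precursor, against 8.23 with its control, and at 0.685 with the antimir, against a listed 0 with its control. The gene lies on chromosome 8, 22545172 to 22941132 in hg19, in a span shared with RHOBTB2 on the opposite strand.

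**Figure D2:**
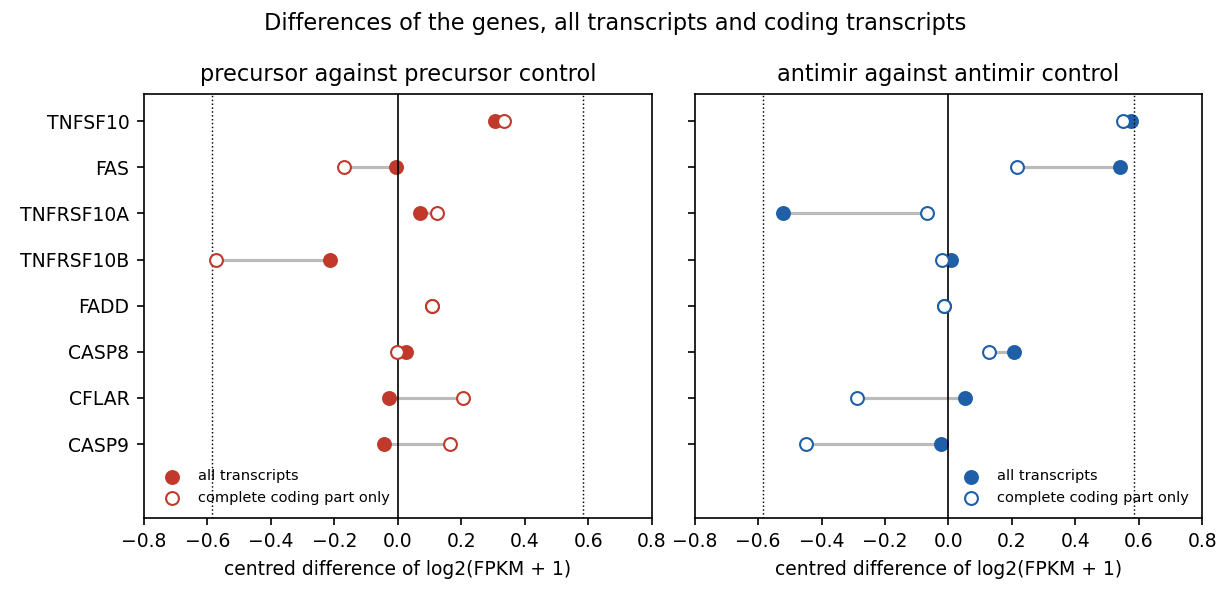
Centred differences of log2(FPKM + 1), treated minus control (horizontal axes), per gene, for the sum of all transcripts (filled) and of transcripts with a complete coding part (open); dotted lines mark 1.5-fold and for FADD both points coincide. The antimir difference of TNFRSF10A is -0.52 for all transcripts and -0.07 for coding ones, and the precursor difference of TNFRSF10B is -0.21 and -0.57.

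FADD, the adaptor that links the receptors to CASP8, was level across libraries. It has 1 listed transcript, of 208 residues. It was at 13.0 FPKM with the precursor, against 11.8 with its control (0.11), and at 11.4 with the antimir, against 11.9 with its control (-0.01). An antisense gene over it, AP000879.1, was listed at 21.7 FPKM with the precursor, against 24.5 with its control, and at 15.3 with the antimir, against 14.9 with its control; its reads and those of FADD cannot be told apart without strand. The locus is chromosome 11, 70049269 to 70053496 in hg19.

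CASP8, the caspase activated at the death receptors, had the highest summed FPKM of the 8 genes. It was at 97.9 FPKM with the precursor, against 94.6 with its control (0.03), and at 58.3 with the antimir, against 51.8 with its control (0.21). Of protein-coding genes, 27.9% lay at least as far from 0 in the antimir comparison. A large share of that level came from CASP8-219, a processed transcript of only 230 bases. CASP8-219 was at 46.5 FPKM with the precursor, against 40.9 with its control, and at 13.1 with the antimir, against 11.1 with its control. It held 47.5% and 43.2% of the gene's FPKM in the precursor library and its control, but 16.8% and 14.0% once FPKM was multiplied by transcript length. The coding incomplete fragment CASP8-210, of 308 bases, was at 17.0 FPKM with the precursor, against 17.3 with its control, and at 12.0 with the antimir, against 6.86 with its control.

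In transcripts with a complete coding part CASP8 was level: 7.36 FPKM with the precursor, against 7.25 with its control (-0.0020), and 12.8 with the antimir, against 11.9 with its control (0.13). Within them the 2 transcripts that the authors called ran in opposite directions. CASP8-205, of 538 residues, was at 2.18 FPKM with the precursor, against 3.04 with its control, called lower in the authors' deposited table (q-value 0.0419). CASP8-212, of 479 residues, was at 2.96 FPKM with the precursor, against 1.82 with its control, called higher in the authors' deposited table (q-value 0.0332). CASP8-212 thus took 57.6% of the pair with the precursor, against 37.4% with its control, but 51.5% with the antimir, against 51.9% with its control. CASP8-205 was at 3.17 FPKM with the antimir, against 3.91 with its control, and CASP8-212 at 3.36 FPKM with the antimir, against 4.22 with its control, with no call for either in the authors' deposited table. The transcript ENST00000392259, not found in GENCODE 29, was at 0.527 FPKM with the precursor, against a listed 0 with its control (q-value 2.35e-07 in the authors' deposited table). ENST00000442304, also not found there, separated the tables rather than the treatments: it was at a listed 0 with the precursor, against 0.368 FPKM with its control, and at 8.54 with the antimir, against 7.85 with its control. The CASP8 locus is chromosome 2, 202098166 to 202152434 in hg19.

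**Figure D3:**
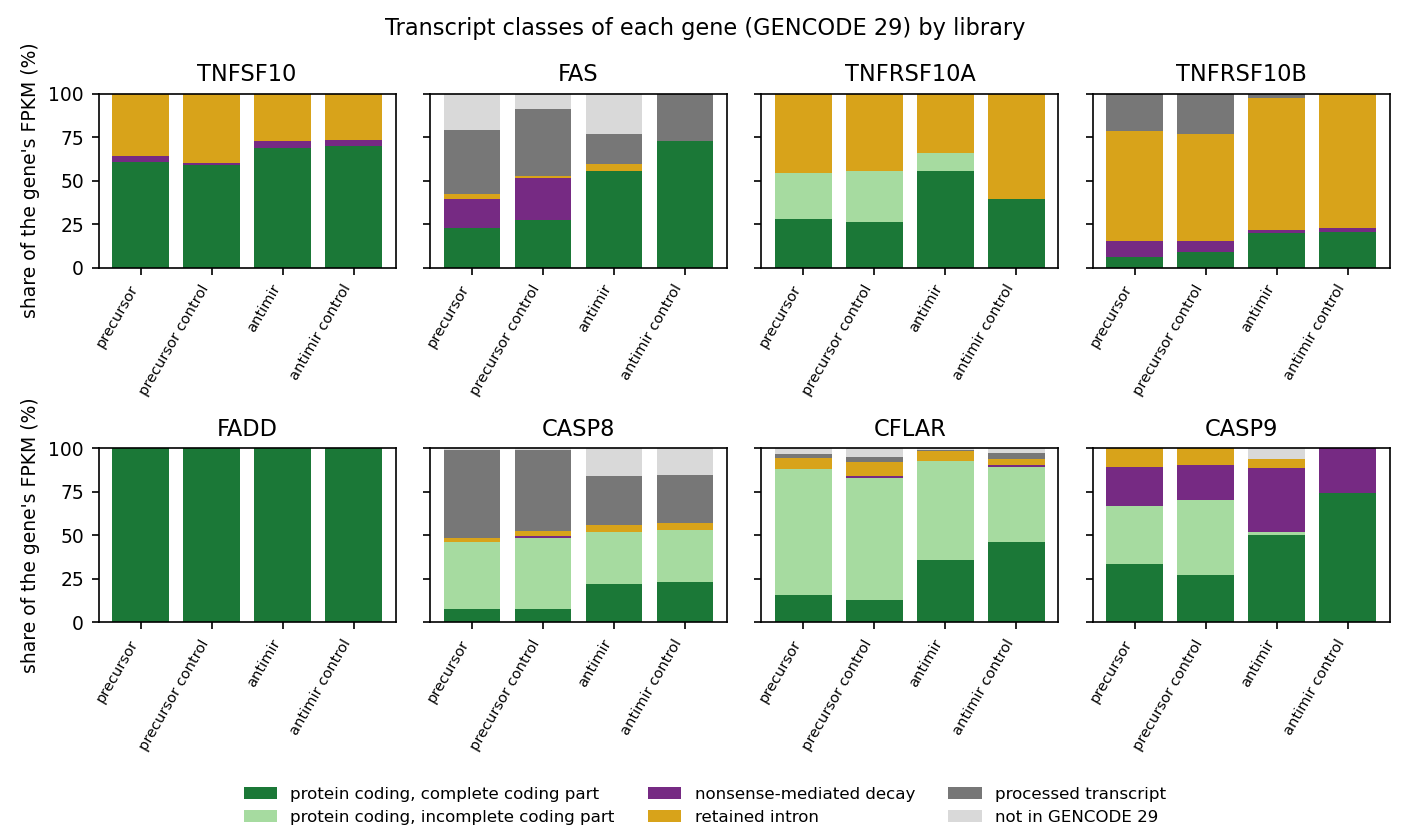
Share of each gene's FPKM (vertical axes, percent) in 6 transcript classes of GENCODE 29; each bar is 1 library. For TNFRSF10B the shares differ more between the 2 tables than between a treated library and its control, as complete coding transcripts hold 5.79% of it with the precursor, against 8.71% with its control, and 20.1% with the antimir, against 20.6% with its control.

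CFLAR, the inhibitor of CASP8, had equal sums in each comparison. It was at 47.7 FPKM with the precursor, against 47.9 with its control (-0.03), and at 30.5 with the antimir, against 30.2 with its control (0.05). Its long form CFLAR-201, of 480 residues, carries the shorter site printed above. CFLAR-201 was at 1.01 FPKM with the precursor, against 0.966 with its control, and at 4.99 with the antimir, against 4.56 with its control.

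The shorter CFLAR-202 and CFLAR-203 were higher in the precursor library and lower in the antimir library. CFLAR-203 encodes 221 residues, the length of c-FLIP short, and CFLAR-202 encodes 321 residues. Both, and CFLAR-206, CFLAR-212 and CFLAR-225, were named here after their values were seen. The junctions of CFLAR-202 and CFLAR-203, with the next exon in capitals, tell them from CFLAR-201 (GENCODE 29, chromosome 2).
CFLAR-201 exons 5/6: tcaaataacttcaggCTCCATAATGGGAGA
CFLAR-203 exons 5/6: tcaaataacttcaggATGATAACACCCTAT
CFLAR-202 exons 3/4: tcaaataacttcaggGAAGAACCAGTGAAG
CFLAR-203 was at 0.836 FPKM with the precursor, against 0.145 with its control, called higher in the authors' deposited table (q-value 0.0256), and at 1.15 with the antimir, against 3.22 with its control (not called, p-value 0.0905). CFLAR-202 was at 1.27 FPKM with the precursor, against 0.214 with its control, called higher in the authors' deposited table (q-value 0.000357). In the antimir library CFLAR-202 was listed at 0, and it was at 1.76 FPKM in the antimir control (p-value 0.00135 and q-value 0.191 in the authors' deposited table, not called). The 2 control libraries also stood apart from each other for both transcripts, and for CFLAR-203 by more FPKM than either treated library from its own control, in tables normalised separately. Another transcript of 221 residues, CFLAR-212, was at or under 0.171 FPKM in all 4 libraries, and at 0.165 with the antimir, against 0.171 with its control. CFLAR-206, of 250 residues, was at 0.457 FPKM with the precursor, against 0.418 with its control, and at 0.655 with the antimir, against 0.339 with its control. CFLAR-225, of 117 residues, was at a listed 0 with the precursor, against 0.101 FPKM with its control, and listed at 0 in both libraries of the antimir table.

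Against CFLAR-201, CFLAR-203 took 45.3% of the pair with the precursor, against 13.0% with its control, and 18.8% with the antimir, against 41.4% with its control. All CFLAR transcripts with a complete coding part together were at 7.55 FPKM with the precursor, against 6.30 with its control (0.21), and at 10.9 with the antimir, against 13.9 with its control (-0.29). Other genes with signal lie over CFLAR, and all but 1 had levels that differed in the same directions as CFLAR-202. IMPDH1P10, a pseudogene on the opposite strand, was at 1.01 FPKM with the precursor, against 0.449 with its control. With the antimir IMPDH1P10 was at 0.814 FPKM, against 1.01 with its control. AC007283.1, on the same strand, was at 3.30 FPKM with the precursor, against 1.64 with its control, and at 0.00073 with the antimir, against 2.24 with its control. CFLAR-AS1, on the opposite strand, was at 0.571 FPKM with the precursor, against 0.052 with its control, and at 0.314 with the antimir, against 1.41 with its control. RNU7-45P, a small nuclear RNA gene on the same strand, was at 113 FPKM with the precursor, against 287 with its control, and listed at 0 in both libraries of the antimir table. Their part in the CFLAR values was not tested. Fragments with an incomplete coding part made up most of the sum, 72.3% with the precursor, against 69.9% with its control, and 57.0% with the antimir, against 43.4% with its control. Among them CFLAR-210, of 435 bases, was at 14.0 FPKM with the precursor, against 11.4 with its control, and at 3.25 with the antimir, against a listed 0 with its control. CFLAR-213 and CFLAR-220 were near their controls with the precursor (5.96 against 6.01 FPKM, and 8.76 against 8.46). With the antimir CFLAR-213 was at 3.24 FPKM, against 5.80 with its control, and CFLAR-220 at 4.84, against 5.19. CFLAR-219 was at 2.97 FPKM with the precursor, against 3.39 with its control, and at 3.93 with the antimir, against 1.27 with its control. The locus is chromosome 2, 201980827 to 202029033 in hg19.

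CASP9, the initiator of the mitochondrial branch, was level as a sum, at 8.54 FPKM with the precursor, against 8.67 with its control (-0.04), and at 5.20 with the antimir, against 5.46 with its control (-0.02). Its coding transcripts were not. CASP9-201 encodes the whole caspase of 416 residues, and CASP9-202, which lacks exons 3 to 6 of it, encodes 266 residues, the form known as caspase-9b, which inhibits the apoptosome. The junctions that separate them are shown with the next exon in capitals (GENCODE 29, chromosome 1).
CASP9-201 exons 2/3: gatttggtgatgtcgGTGCTCTTGAGAGTT
CASP9-202 exons 2/3: gatttggtgatgtcgAGCAGAAAGACCATG
CASP9-202 was at 1.93 FPKM with the precursor, against 1.64 with its control (p-value 0.349 in the authors' deposited table, not called). With the antimir CASP9-202 was at 0.740 FPKM, against 2.24 with its control (p-value 0.00817 and q-value 0.586 in the authors' deposited table, not called). CASP9-201 was listed at 0 in both libraries of the precursor table, and was at 1.36 FPKM with the antimir, against 1.18 with its control. CASP9-202 therefore took 35.3% of the pair with the antimir, against 65.6% with its control.

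CASP9 transcripts with a complete coding part together were at 2.85 FPKM with the precursor, against 2.38 with its control (0.16), and at 2.60 with the antimir, against 4.05 with its control (-0.45). Those with an incomplete coding part ran the other way with the precursor, at 2.86 FPKM against 3.70 with its control, and all protein-coding transcripts together gave -0.11 there. CASP9-204, annotated for nonsense-mediated decay, was at 1.47 FPKM with the precursor, against 1.74 with its control, and at 1.91 with the antimir, against 1.41 with its control. The fragments CASP9-205 and CASP9-207 were at 1.22 to 1.62 FPKM in the precursor table and listed at 0 in both libraries of the antimir table. CASP9-209, a transcript annotated for nonsense-mediated decay and named after its values were seen, was at 0.446 FPKM with the precursor, against a listed 0 with its control (q-value 0.00689 in the authors' deposited table). The locus is chromosome 1, 15783223 to 15853029 in hg19.

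**Figure D4:**
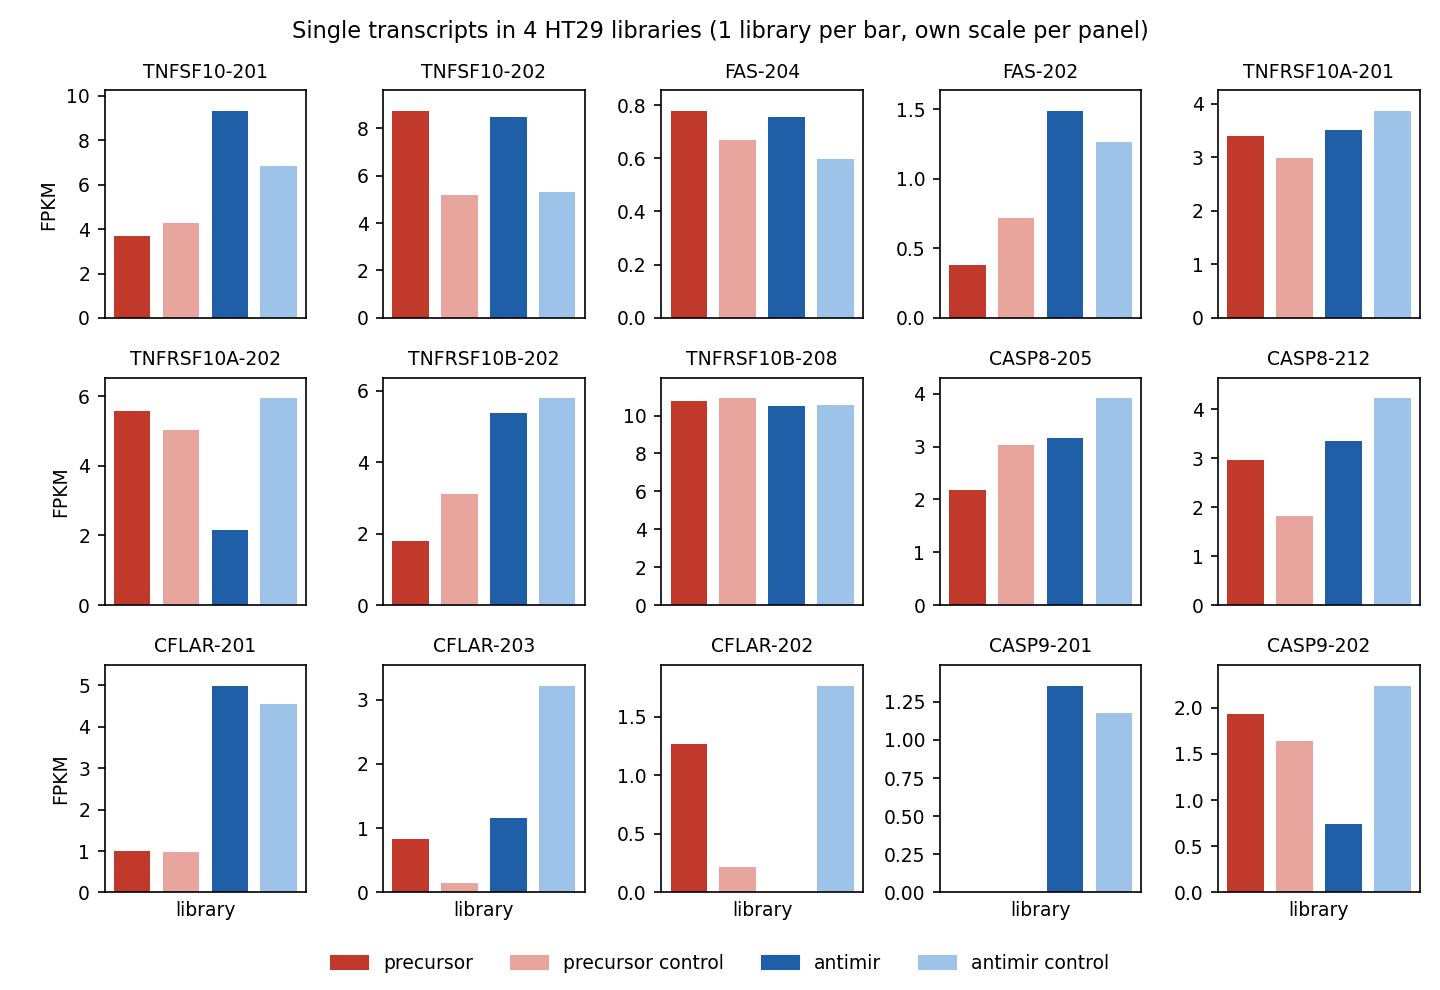
FPKM (vertical axes, linear, from 0, own scale per panel) of 15 single transcripts in the 4 libraries, 1 library per bar. TNFSF10-202 is higher in both treated libraries than in their controls, whereas CFLAR-202 and CFLAR-203 are higher in the precursor library and lower in the antimir library. CASP9-202 is lower in the antimir library and only slightly higher in the precursor library (1.93 against 1.64 FPKM, not called by the authors).

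Across the 98 transcripts of the 8 genes, the authors' deposited table called 10 of 68 tested in the precursor comparison, 7 higher and 3 lower, in 6 genes. That is 14.7%, beside 13.6% of all 78175 transcripts tested there (6.91% higher and 6.66% lower), so the share called was near the background. In the antimir comparison the authors' deposited table called 0 of 57 tested, beside 0.414% of all 62029. At a p-value under 0.05 in that table stood CFLAR-202, CASP9-202 and TNFSF10-202 among those tested, with ENST00000375874 of CASP9, which was at 0.318 FPKM with the antimir, against a listed 0 with its control (p-value 0.0333 in the authors' deposited table). Values at 0 were common: 18 of the 85 transcripts with any signal in the precursor table were listed at 0 in 1 of the 2 libraries, and 23 of 73 in the antimir table. These authors' p-values compare 2 libraries, not 2 conditions.

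The rest of the pathway also lay close to its controls with the precursor. Of 53 further ligands, receptors, adaptors, caspases, apoptosome genes, inhibitors and caspase substrates, 43 passed the minimum in the precursor comparison, with 24 above 0, 19 below, none past 1.5-fold and a median of 0.03. In the antimir comparison 44 passed it, with 28 above 0, 16 below and a median of 0.07, and 3 were past 1.5-fold, all higher. That is 6.82%, beside 7.97% of all genes and 2.62% of protein-coding genes there. The share was thus near that of all genes and above that of protein-coding genes, and it rests on 3 genes. CASP1, the inflammatory caspase, was at 2.05 FPKM with the antimir, against 0.433 with its control (1.13), and passed the minimum only through the antimir library. BIRC3, an inhibitor of apoptosis protein that is a target of NF-kB, was at 3.39 FPKM with the antimir, against 1.72 with its control (0.73). CRADD, an adaptor with a death domain, was at 9.69 FPKM with the antimir, against 6.02 with its control (0.64), but at -0.91 when its protein-coding transcripts alone were summed. The p53 target list, which holds neither FAS nor TNFRSF10B though both are p53 targets, had medians of 0.05 in both comparisons over 12 genes. Of the 7 apoptosome and mitochondrial genes, 6 were above 0 in the antimir comparison (median 0.18) and 3 in the precursor comparison (median -0.03).

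**Figure D5:**
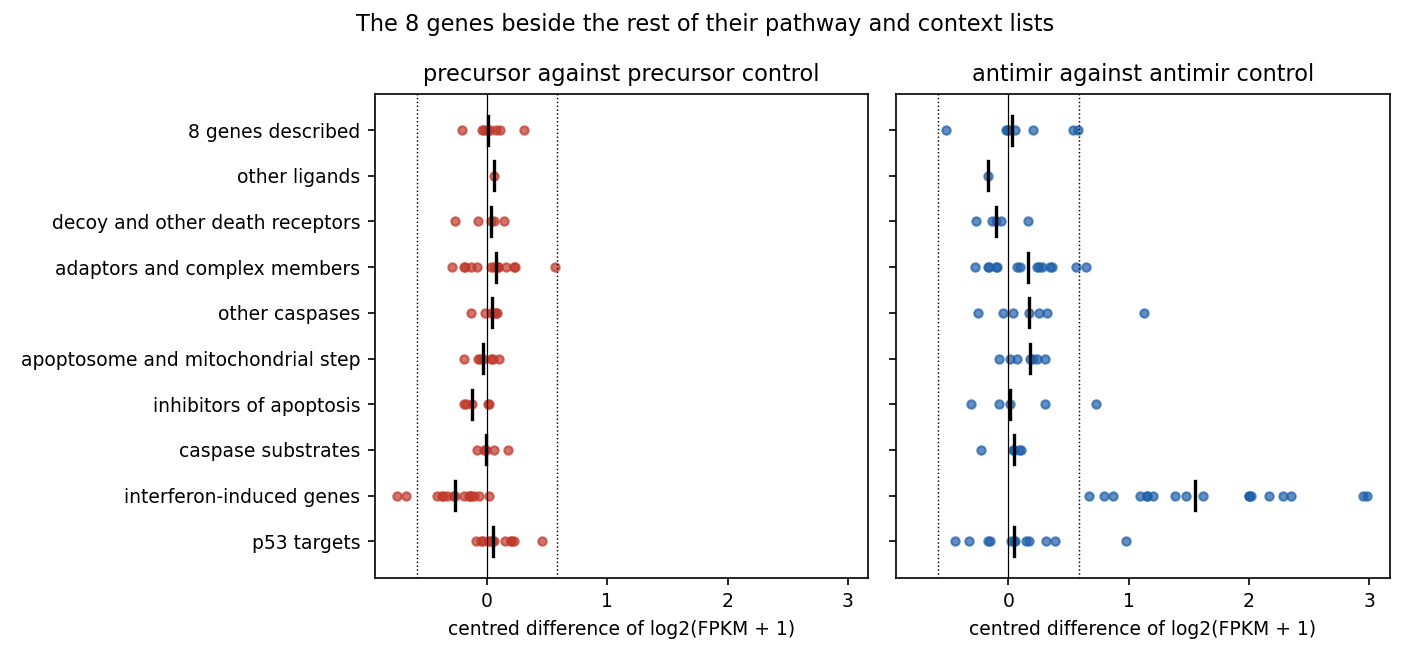
Centred differences of log2(FPKM + 1), treated minus control (horizontal axes), of the 8 genes and of the genes of each list past the minimum level; each point is 1 gene, black ticks are medians and dotted lines mark 1.5-fold. The 8 genes have medians of 0.01 and 0.03, whereas interferon-induced genes have medians of -0.26 with the precursor and 1.55 with the antimir.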

How the data were processed

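RNA was sequenced from 4 HT29 libraries. Per the submitters' processing notes, bcl2fastq 1.8.3, TopHat2 2.0.11, Cufflinks 2.2.0, Cuffdiff and hg19 were used; annotation, strand setting and read depth are not given in the sources used here. Per the file headers, the authors deposited 2 tables of FPKM per transcript with their p-value and q-value. The library whose name ends in N was taken as the control. The authors' fold change column, which runs control over treated, was not used.

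FPKM was summed per gene identifier over transcripts without a failed status (no transcript of the 8 genes had one), leaving out whole-gene entries where transcripts exist. Differences of log2(FPKM + 1) were centred on the median of genes with a mean of at least 1 FPKM (0.02 was removed with the precursor and -0.04 with the antimir). Python 3.11.15, pandas 2.3.3, numpy 2.4.6 and matplotlib 3.10.9 were used, and the steps were tested on simulated data. Transcript classes, lengths and residues came from GENCODE 29, matched by identifier (90 of the 98 transcripts), and may differ from the authors' annotation. Locus spans are those of the tables and can cover neighbouring genes. Transcripts were named where they held at least 10% of their gene in a library or were called by the authors, at most 6 per gene by mean FPKM; pathway genes where past 1.5-fold. FASLG, TNFRSF10C and TNFRSF10D were named after their values were seen. The transcripts FAS-205, TNFRSF10B-201 and ENST00000375874 were named outside this rule. Genes and lists were chosen with earlier results of these data known.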

Additional observations from a re-analysis of the deposited data

How the results depend on the processing

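No paired analysis was possible because each group holds 1 library and the groups share only the number 1. The count of all genes past 1.5-fold, 1135 with the precursor and 1131 with the antimir, was 625 and 622 at a minimum mean of 5 FPKM, 128 and 290 for protein-coding genes, 185 and 380 for protein-coding transcripts, and 128 and 251 for transcripts of at least 1000 bases. The last 2 settings, and shares weighted by transcript length, were chosen after seeing the data; fewer entries entered each of these. The median of the 8 genes lay between -0.03 and 0.12 with the precursor and between -0.02 and 0.12 with the antimir. Of 174 single-gene alternatives, 17 turned sign and 5 passed 1.5-fold. Past it were FAS (0.68) and TNFSF10 (0.60) with the antimir at a pseudocount of 0.1 FPKM, TNFSF10 with the precursor (0.62) and TNFRSF10A with the antimir (-1.10) from the most abundant transcript alone, and TNFRSF10B with the precursor (-0.59) from protein-coding transcripts. With the antimir TNFRSF10A was 0.13 from protein-coding transcripts, and FAS was 0.09 from tested transcripts. With the precursor FAS was -0.20 from tested transcripts, -0.18 from protein-coding transcripts and -0.45 from transcripts of at least 1000 bases. In its other settings there it lay between -0.0102 and 0.0177. The cause of these shifts was not tested. Of 132 shares, 112 moved by over 1 percentage point when weighted by length.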

Other observations

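Besides its transcripts, each of the 8 genes has an entry under its own gene identifier, with low values of 0.012 to 0.787 FPKM that were left out of the sums. In the precursor library this entry was lower than in its control for all 8 genes, at 0.752 to 0.911 of the control value. In the antimir library it was between 0.719 and 1.47 of the control value, highest for TNFSF10. Adding these entries lowered the share of FADD-201 to 94.9% with the precursor, against 93.7% with its control, and to 94.6% with the antimir, against 94.4% with its control. What reads these entries hold is not given in the sources used here.

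TNFRSF10C and TNFRSF10D encode decoy receptors for TRAIL. TNFRSF10D was at 2.80 FPKM with the precursor, against 2.66 with its control (0.03), and at 2.39 with the antimir, against 2.63 with its control (-0.06). TNFRSF10C stayed under a mean of 1 FPKM in both comparisons. FASLG, the ligand of FAS, was at or under 0.063 FPKM in all 4 libraries. The p53 target RRM2B was at 21.0 FPKM with the antimir, against 10.4 with its control (0.98).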
